A study of Xenopus laevis with 3 samples.

Results

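The miR-25, miR-92 and miR-363 family was read out in small RNA libraries from the dorsal side of *Xenopus laevis* gastrulae. Its members were taken by name, as every listed sequence named after *X. laevis* (xla) or *X. tropicalis* (xtr) and called miR-25, miR-92 or miR-363, with any letter, copy, arm or suffix. This gave 9 of the 175 *Xenopus*-named sequences, out of 1985 listed sequences analysed here. No measured value entered this rule, though earlier results of these data were known when the members were chosen. All 9 had at least 1 read in some library, and 5 had at least 10 raw reads in a library and could be compared.

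Each of 3 groups gave 1 library. Embryos of the first received Fry-MO, a morpholino blocking translation of *fry*, at 20 ng. Those of the second received Lhx1-AS, an antisense oligonucleotide against *lhx1* transcripts, at 400 pg, and the third was left uninjected. Injections were made into both dorsal blastomeres at the 4-cell stage, and injected embryos, which also received the tracer rhodamine dextran, were selected by red fluorescence on the dorsal side. At stage 10.5 the dorsal side was cut off, and each library holds RNA from 30 such pieces, collected over 3 experiments. No library from a control oligonucleotide was used here, so the effects of depletion and those of injecting and selecting embryos cannot be told apart. The spread between replicates is unknown with 1 library per group, and p-values are left out. The intervals below are 95% intervals that cover counting error only, and they are exact only where reads are whole.

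MicroRNAs guide Argonaute proteins to messenger RNAs, and bases 2 to 8, the seed, do most of the target recognition. The miR-25, miR-92 and miR-363 family shares its seed with miR-32 and miR-367. In mammals its members come from the precursor clusters mir-17-92, mir-106a-363 and mir-106b-25, which are known for keeping dividing progenitor cells in cycle and alive, partly by holding down cell cycle inhibitors and the death protein Bim. A precursor hairpin gives a product from each side. In this family the 3′ side carries the seed and is the usual guide strand.

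Of the 9 members, 4 held the seed letters ATTGCAC at bases 2 to 8. They are shown as deposited, 5′ to 3′ in DNA letters with the seed in capitals, because the results turn on how reads were divided among these guides with a shared seed.
miR-363-3p: aATTGCACggtatccatctgtaa
miR-25: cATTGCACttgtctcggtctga
miR-92a: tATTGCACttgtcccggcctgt
miR-92b: tATTGCACtcgtcccggcctcc
Outside the seed miR-25 and miR-92a were close. They differed at 4 of 22 positions, counted from 1 at the 5′ end (C1T, T14C, T18C and A22T, with the base of miR-25 first). MiR-92a and miR-92b differed at 3 (T10C, G21C and T22C, with the base of miR-92a first). MiR-363-3p shared the seed but differed from miR-25 at 13 and from miR-92a at 12 of 22 positions. Of all 1985 listed sequences 17 held the seed letters at this place, which is 0.856%, and 2 of the 17 fell outside the family by number, miR-367 with 0 reads with Fry-MO, 2 with Lhx1-AS and 3 in uninjected embryos, and a lizard-named miR-32 with none.

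The other 5 members lacked the seed there. Those with enough reads are shown with their longest run of letters that is complementary to the mature partner in capitals.
miR-363, 5′ side: cgggtggatcacgaTGCAATTtt
mir-92a-1-p5: aggttgggattggtTGCAATgct
The run of 7 bases in the miR-363 product pairs with bases 1 to 7 of miR-363-3p, and the run of 6 in mir-92a-1-p5 with bases 2 to 7 of miR-92a, so that both runs lie opposite the seed. The name of the miR-363 product does not give its arm, and it is called the 5′ side here from this complementarity alone, whereas the name mir-92a-1-p5 gives its side. The remaining 3 had few reads. They were mir-92a-2-p5 from a second mir-92a precursor, a sequence of 33 bases named mir-25-2-p5, and a sequence of 37 bases that runs on from the 5′ product of miR-363.

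The libraries differed as wholes. Listed sequences took 108041 reads with Fry-MO, 56026 with Lhx1-AS and 133894 in uninjected embryos. The authors divided raw reads by 0.877 in the Fry-MO, 0.773 in the Lhx1-AS and 0.921 in the uninjected library, and these normalized counts are used below. MiR-427, the abundant miRNA of the early frog embryo that clears maternal messages, marked all 3 libraries as early embryo. Its sequences with those of miR-428 and miR-302, which were few, summed to 17527 normalized counts with Fry-MO, 22602 with Lhx1-AS and 50207 in uninjected embryos. These sums follow miR-427. MiR-428 had 30.8, 112.5 and 33.7 and mir-302-p5 13.7, 41.4 and 26.1 in the same order, so both were highest with Lhx1-AS. The 6 sequences of blood and endothelium (such as miR-451, miR-142 and miR-126) summed to 5434 with Fry-MO, 431.8 with Lhx1-AS and 390.0 in uninjected embryos, and their part in the family's values was not tested. Sequences named after placental mammals took 13.9% of the listed reads with Fry-MO, 12.6% with Lhx1-AS and 1.97% in uninjected embryos, and a group of rodent X-linked miRNAs had 21, 1818 and 12 raw reads. The mature letters of miR-25, miR-92a and miR-363-3p are shared by frogs and mammals, and the part of mammalian reads in their counts was not tested. Fewer cells of a type and less RNA per cell cannot be told apart in pooled tissue.

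MiR-363-3p was the most read member in uninjected embryos and stood lower in both depleted libraries. It had 253.1 normalized counts in the Fry-MO library, 294.8 with Lhx1-AS and 580.0 in uninjected embryos, from 222, 228 and 534 raw reads. Both depleted libraries were thus well below the uninjected one and close to each other. The ratio of Fry-MO to uninjected was 0.436 (interval 0.371 to 0.511). That passes the call used here, which is a ratio of at least 2 for higher or at most 0.5 for lower with at least 10 raw reads in 1 of the libraries compared, and which 9.68% of the compared *Xenopus* sequences passed as lower with Fry-MO. The ratio of Lhx1-AS to uninjected was 0.508 (0.433 to 0.595), just outside the call with an interval below 1. Between the depleted libraries the ratio of Fry-MO to Lhx1-AS was 0.859 (0.711 to 1.04), and its interval held 1. Ordered by raw reads among the *Xenopus* sequences, miR-363-3p was at place 39 with Fry-MO, 13 with Lhx1-AS and 6 in uninjected embryos. This place depends on the other sequences too, since the raw reads with Fry-MO (222) and Lhx1-AS (228) were about equal. The calls rest on the scaling. The Fry-MO ratio was 0.515 scaled to the listed reads and 0.617 scaled to the mappable reads, both outside the call, while the ratio of Lhx1-AS to uninjected was 0.459 with TMM and 0.479 with DESeq2 scaling, both inside it, and 1.02 scaled to the listed reads.

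MiR-25 went the other way. It had 283.9 normalized counts with Fry-MO, 223.7 with Lhx1-AS and 82.6 in uninjected embryos, from 249, 173 and 76 raw reads. Both depleted libraries were far above the uninjected one. MiR-25 was 3.44-fold higher with Fry-MO (2.65 to 4.51) and 2.71-fold higher with Lhx1-AS (2.06 to 3.60). Under the authors' normalization it was the only member called higher in either comparison with uninjected embryos. Of all compared *Xenopus* sequences 68.8% were called higher with Fry-MO and 32.9% with Lhx1-AS. The ratio of Fry-MO to Lhx1-AS was 1.27 (1.04 to 1.55), with an interval above 1, and it is 0.746 when the libraries are scaled to the listed reads, so that the order of the depleted libraries rests on the scaling. By raw reads miR-25 was at place 34, 15 and 31 of the *Xenopus* sequences in the Fry-MO, Lhx1-AS and uninjected library. A hamster-named sequence for the 5′ side of mir-25 had 5, 1 and 0 reads in the same order. Also named for that side were the *X. tropicalis* mir-25-2-p5 with 3, 1 and 2 reads and a zebra finch-named sequence with 0, 0 and 1. Counts this low show no direction.

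**Figure D1:**
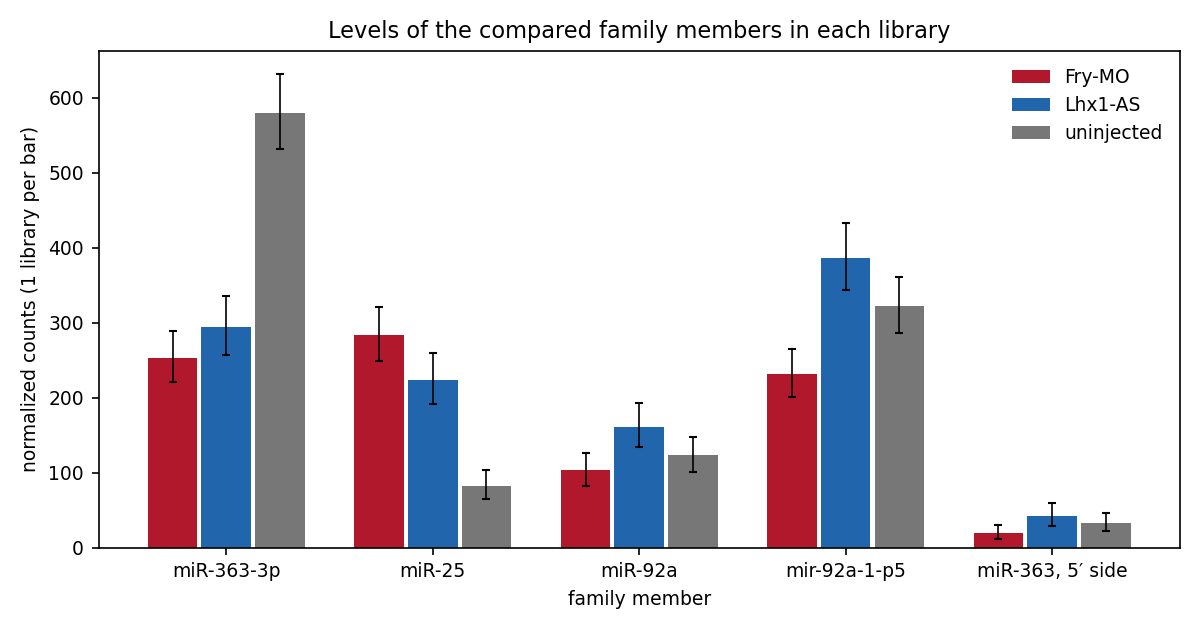
Normalized counts (vertical axis) of the 5 members with enough reads in the Fry-MO, Lhx1-AS and uninjected library, 1 library per bar, with 95% counting intervals as error bars. MiR-363-3p has its highest level in the uninjected library (580.0) and miR-25 its lowest level there (82.6), while the *X. laevis*-named miR-92a lies between 103.2 and 161.6. Mature miR-92a listed under the names of other species is left out.

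MiR-92a is the member of the mir-17-92 and mir-106a-363 clusters best known from blood vessels and B cells of mammals. Under the authors' normalization it was called in none of the 3 comparisons. The *X. laevis*-named sequence had 103.2 normalized counts with Fry-MO, 161.6 with Lhx1-AS and 123.3 in uninjected embryos. Its ratio to uninjected was 0.837 (0.628 to 1.11) with Fry-MO and 1.31 (1.01 to 1.71) with Lhx1-AS. The ratio of Fry-MO to Lhx1-AS was 0.639 (0.482 to 0.844). Scaled to the listed reads, the ratio of Lhx1-AS to uninjected was 2.63 and that of Fry-MO to Lhx1-AS 0.375, both inside the call.

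Most reads of mature miR-92a were listed under the names of other species. The same letters with further bases at the 3′ end (capitals) were named after zebrafish (dre) and medaka (ola), and are shown because they change how abundant miR-92a is.
dre-miR-92a_R+1: tattgcacttgtcccggcctgtA
ola-miR-92a_R+3: tattgcacttgtcccggcctgtAA
The medaka-named form had 118.3 raw reads with Fry-MO, 123.8 with Lhx1-AS and 167.7 in uninjected embryos, against 90.5, 125 and 113.5 for the *X. laevis*-named one. The zebrafish-named form had 20, 24.5 and 35. Reads that fit several listed sequences were divided among them, so these values are not whole and not independent. Over all 10 listed sequences with the seed and the first 18 bases of miR-92a there were 229.3, 276.1 and 318.4 raw reads, of which 60.5%, 54.7% and 64.4% did not carry a *Xenopus* name. With these summed, the ratio to uninjected was 0.756 (0.635 to 0.899) with Fry-MO and 1.03 (0.875 to 1.22) with Lhx1-AS. MiR-25 had no such second listing, and for miR-363-3p a zebrafish-named form added only 2, 6 and 5 reads.

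**Figure D2:**
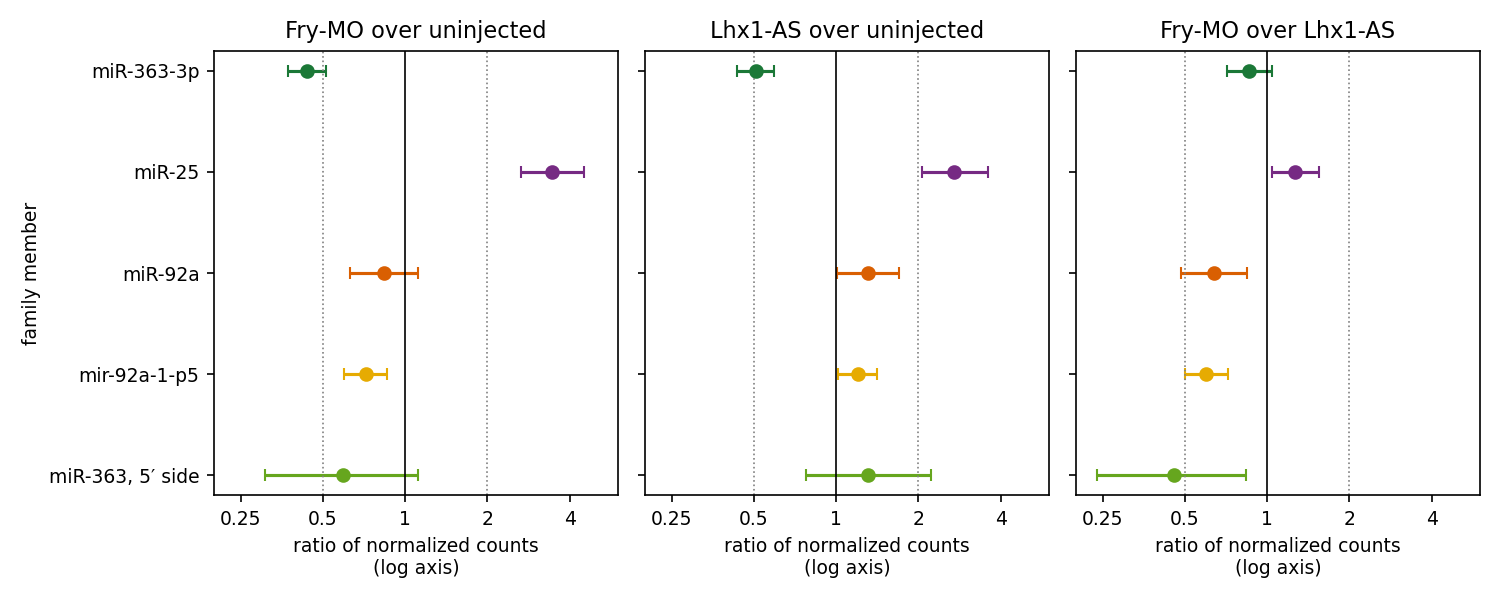
Ratios of normalized counts (log axis) of the 5 compared members in the 3 comparisons, with 95% counting intervals as bars and dotted lines at the calls of 0.5 and 2. MiR-25 lies at 3.44 and 2.71 and miR-363-3p at 0.436 and 0.508 against uninjected embryos, with the other 3 members between them.

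Neither 5′ product was called against uninjected embryos under the authors' normalization. Scaled to the listed reads, both passed the call for higher with Lhx1-AS, at 2.41 for mir-92a-1-p5 and 2.63 for the 5′ product of miR-363. Mir-92a-1-p5, the 5′ side of the first mir-92a precursor, had 231.5 normalized counts with Fry-MO, 386.6 with Lhx1-AS and 322.6 in uninjected embryos. It was thus read more than the *X. laevis*-named mature miR-92a in every library. Its ratio to uninjected was 0.718 (0.597 to 0.861) with Fry-MO and 1.20 (1.02 to 1.41) with Lhx1-AS, and the ratio of Fry-MO to Lhx1-AS was 0.599 (0.499 to 0.718). The excess did not hold against the summed mature strand. Against the sum of the 10 mature sequences the 5′ side stood at 0.885 (0.729 to 1.07) with Fry-MO, 1.08 (0.917 to 1.28) with Lhx1-AS and 0.933 (0.794 to 1.10) in uninjected embryos, with each interval holding 1. The 5′ side counts a single sequence of the first precursor, while the mature sum is not separated by precursor or species name. Here the frog letters differ from those of a rat-named sequence at 2 of 23 positions. That sequence had 3 reads with Fry-MO and none with Lhx1-AS or in uninjected embryos, against 203, 299 and 297 for the frog spelling. The part of mammalian reads in the counts of mir-92a-1-p5 was not tested.

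The 5′ product of miR-363 had 19.4 normalized counts with Fry-MO, 42.7 with Lhx1-AS and 32.6 in uninjected embryos, from 17, 33 and 30 raw reads. Its ratios to uninjected were 0.595 (0.308 to 1.11) with Fry-MO and 1.31 (0.774 to 2.22) with Lhx1-AS, and both intervals held 1. The ratio of Fry-MO to uninjected was 0.477 with TMM and 0.478 with DESeq2 scaling, both inside the call for lower. With Fry-MO over Lhx1-AS the ratio of 0.454 (0.237 to 0.839) passed the call for lower, the only one among the members in that comparison, where 9.38% of all compared sequences were lower. It rests on 17 against 33 reads and was 0.594, outside the call, when scaled to the mappable reads, while scaling to the listed reads gave 3 lower members. Relative to miR-363-3p of the same library, this product stood at 0.0766 with Fry-MO, 0.145 with Lhx1-AS and 0.0562 in uninjected embryos. That proportion was 2.58-fold higher (1.48 to 4.48) with Lhx1-AS than in uninjected embryos and 1.36-fold (0.690 to 2.61) with Fry-MO. The interval of this change lay above 1 with Lhx1-AS and held 1 with Fry-MO.

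The members with few reads were near the limit of counting. MiR-92b, which is expressed from a precursor of its own in mammals, had 4 raw reads with Fry-MO, 3 with Lhx1-AS and 0 in uninjected embryos. Since a count of 0 allows as many as 3 reads (3.26 normalized counts there), no difference was detectable at this depth. Mir-92a-2-p5 had 3, 9 and 5 raw reads, mir-25-2-p5 had 3, 1 and 2, and the longer miR-363 sequence had 0, 1 and 0, in the same order of libraries. None of these 4 could be compared.

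The make-up of the family can be read without any scaling between libraries. MiR-363-3p took 28.0% of the raw reads of all 9 members in the Fry-MO library (24.9% to 31.3%, Clopper-Pearson), 26.1% in the Lhx1-AS library (23.3% to 29.2%) and 50.5% in the uninjected library (47.4% to 53.6%). MiR-25 took 31.5% (28.2% to 34.8%), 19.8% (17.2% to 22.6%) and 7.19% (5.70% to 8.91%). The family of uninjected embryos was thus led by miR-363-3p. In the Fry-MO library miR-25 and miR-363-3p were about level, with mir-92a-1-p5 close to miR-363-3p. In the Lhx1-AS library mir-92a-1-p5 was the most read member. MiR-92a took 11.4%, 14.3% and 10.7%, and mir-92a-1-p5 25.6%, 34.3% and 28.1%. Among the 4 members with the seed alone, miR-363-3p took 39.3% with Fry-MO, 43.1% with Lhx1-AS and 73.8% in uninjected embryos. These shares count only the *X. laevis*-named form of mature miR-92a. With its 10 listed sequences summed, miR-92a had 229.3, 276.1 and 318.4 raw reads in the Fry-MO, Lhx1-AS and uninjected library. MiR-363-3p with its zebrafish-named form had 224, 234 and 539, and led miR-92a only in the uninjected library.

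**Figure D3:**
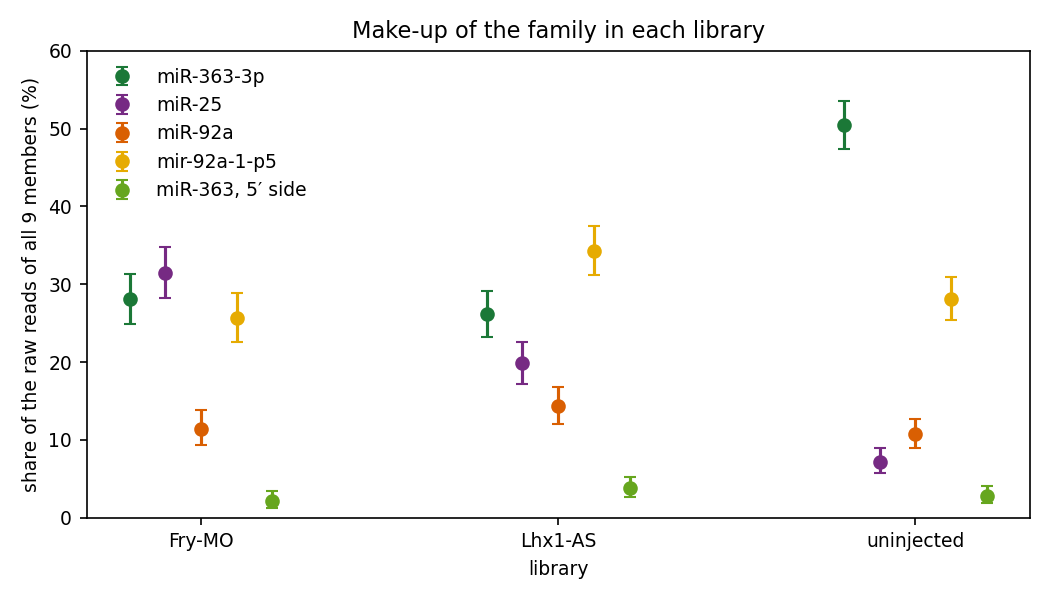
Share (percent, vertical axis) of the raw reads of all 9 members taken by each of the 5 compared members in the Fry-MO, Lhx1-AS and uninjected library, with Clopper-Pearson 95% intervals as bars. The share of miR-363-3p is 28.0% and 26.1% in the depleted libraries against 50.5% in uninjected embryos, and that of miR-25 is 31.5% and 19.8% against 7.19%. Reads of mature miR-92a listed under the names of other species are not counted.

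Read per read of miR-363-3p, miR-25 stood at 1.12 in the Fry-MO library (0.932 to 1.35), 0.759 in the Lhx1-AS library (0.619 to 0.929) and 0.142 in the uninjected library (0.110 to 0.181). This proportion was 7.88-fold higher with Fry-MO (5.78 to 10.8) and 5.33-fold higher with Lhx1-AS (3.86 to 7.38) than in uninjected embryos, and 1.48-fold higher with Fry-MO than with Lhx1-AS (1.12 to 1.95). No choice of scaling can alter these values, as both sequences come from the same library. MiR-25 and miR-363-3p had the highest and the lowest ratio to uninjected of the compared members, so the choice of this pair makes the change large. With Fry-MO 68.8% of the compared *Xenopus* sequences were called higher, and miR-25 was at place 55 of 93 from the highest. A large change per read of miR-363-3p was thus not particular to miR-25 there. Per read of the summed mature miR-92a, miR-25 stood at 1.09, 0.627 and 0.239 in the Fry-MO, Lhx1-AS and uninjected library, 4.55-fold (3.31 to 6.28) and 2.63-fold (1.90 to 3.64) above uninjected embryos. MiR-363-3p with its zebrafish-named form stood at 0.977 (0.809 to 1.18), 0.848 (0.709 to 1.01) and 1.69 (1.47 to 1.95) per read of miR-92a. It was thus above miR-92a beyond counting error only in the uninjected library. Intervals with miR-92a rest on rounded reads.

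As a sum, all 9 members together had 902.5 normalized counts with Fry-MO, 1127 with Lhx1-AS and 1149 in uninjected embryos. The ratio of Lhx1-AS to uninjected was 0.981 (0.896 to 1.07) and that of Fry-MO to uninjected 0.786 (0.716 to 0.862). Both rest on the scaling, since the ratio with Lhx1-AS was 1.97 scaled to the listed reads and that with Fry-MO was 1.11 scaled to the mappable reads. MiR-363-3p and miR-25, with ratios on opposite sides of 1, both enter these sums. Without miR-363-3p, an alternative chosen after the data were seen, the ratios were 1.46 with Lhx1-AS and 1.14 with Fry-MO under the authors' normalization. Leaving out the compared member with the lowest ratio could only raise them, so no conclusion is drawn from this rise. The 4 members with the seed had 644.8, 683.9 and 785.9 normalized counts in the Fry-MO, Lhx1-AS and uninjected library, with ratios to uninjected of 0.821 (0.734 to 0.917) and 0.870 (0.776 to 0.975). These ratios rest on the scaling too. Scaling to the listed reads raises that with Lhx1-AS 2.01-fold, and scaling to the mappable reads that with Fry-MO 1.41-fold, which puts each above 1. Only the *X. laevis*-named form of mature miR-92a is counted in these sums. Of all reads with a *Xenopus* name the 9 members took 1.23% with Fry-MO, 3.10% with Lhx1-AS and 1.88% in uninjected embryos. These shares also move with the other sequences. Those of miR-427, miR-428 and miR-302 took 15371 of 64202 such reads with Fry-MO, 17482 of 28084 with Lhx1-AS and 46222 of 56204 in uninjected embryos.

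The members were set beside all compared *Xenopus* miRNAs. With Lhx1-AS 1 of 5 members was called higher and none lower, where 32.9% of 79 compared *Xenopus* sequences were called higher and 6.33% lower. With Fry-MO 1 of 5 was called higher and 1 lower, where 68.8% of 93 were called higher and 9.68% lower. With Fry-MO over Lhx1-AS none of 5 was called higher and 1 lower, where 55.2% of 96 were called higher and 9.38% lower (64.6% in either direction). By counting interval, 3 of 5 members lay above 1 and 1 below with Lhx1-AS (43% and 13.9% of all compared), 1 above and 2 below with Fry-MO (68.8% and 12.9%), and 1 above and 3 below for Fry-MO over Lhx1-AS (59.4% and 12.5%). The median log2 ratio of the 5 members, with 1 normalized count added, was 0.38 with Lhx1-AS beside 0.33 over all compared, -0.48 with Fry-MO beside 2.02, and -0.64 for Fry-MO over Lhx1-AS beside 1.35. Both comparisons with uninjected embryos share that library. Counted from the lowest ratio, miR-363-3p was at place 7 of 79 with Lhx1-AS and 7 of 93 with Fry-MO. The 3.44-fold ratio of miR-25 with Fry-MO was at place 55 of 93 from the highest, and thus not among the larger ones, while its 2.71-fold ratio with Lhx1-AS was at place 20 of 79.

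**Figure D4:**
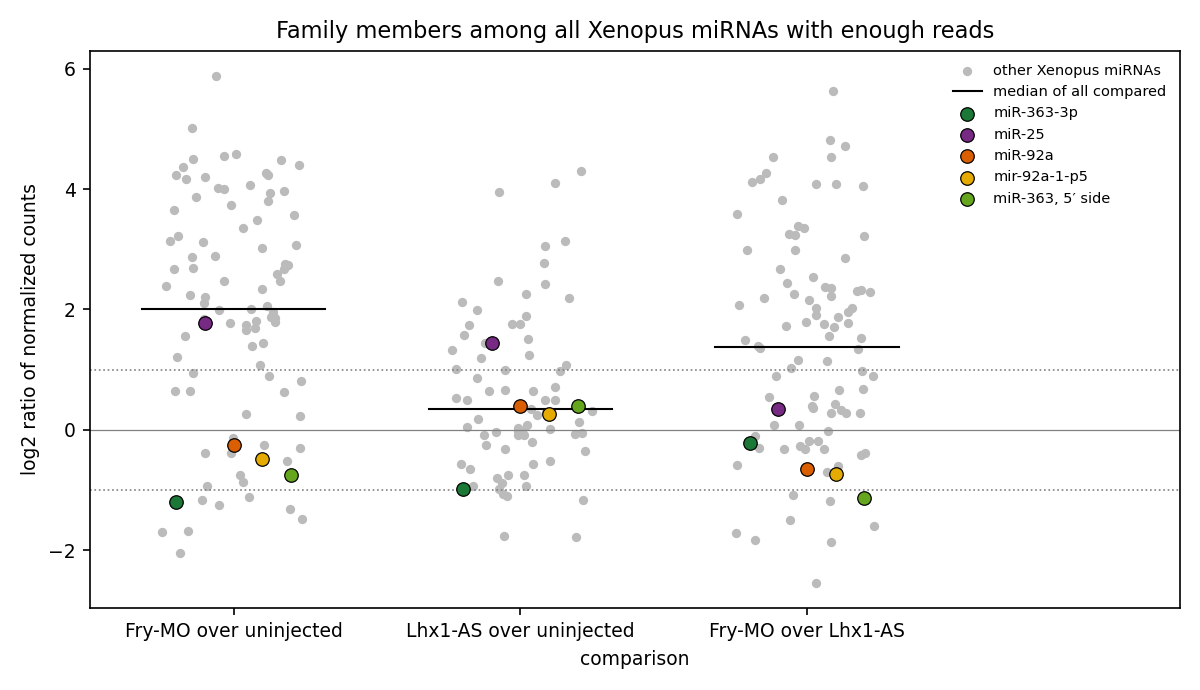
Log2 ratios of normalized counts (vertical axis) of all *Xenopus* miRNAs with enough reads in the 3 comparisons (93 sequences for Fry-MO over uninjected, 79 for Lhx1-AS over uninjected and 96 for Fry-MO over Lhx1-AS), with no count added, the family members in colour, black lines at the median of all and dotted lines at the calls. In Fry-MO over uninjected 4 of the 5 members lie below 0 while the bulk lies above it.

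Partners of the family in the mir-17-92 type clusters, miR-17, miR-18, miR-19, miR-20, miR-93 and miR-106, were listed as 14 *Xenopus* sequences, of which 7 could be compared. They share no seed with the family and are known for promoting passage through the cell cycle. With Fry-MO 2 of 7 were called higher and none lower, beside 68.8% higher over all compared, and with Lhx1-AS 3 of 7 were higher and none lower, beside 32.9%. The summed counts of the 14 were 383.1 with Fry-MO, 351.7 with Lhx1-AS and 250.9 in uninjected embryos, ratios of 1.53 (1.29 to 1.81) and 1.40 (1.17 to 1.68). MiR-93a alone gave 206 of 336 raw reads with Fry-MO, 123 of 272 with Lhx1-AS and 138.5 of 231 in uninjected embryos. Both ratios move with the scaling, that with Lhx1-AS by a factor of 2.01 on the listed reads and that with Fry-MO by 0.802 with TMM. MiR-17-5p stood at 46.8 normalized counts with Fry-MO, 44.0 with Lhx1-AS and 13.0 in uninjected embryos. It was called higher in both comparisons, 3.59-fold (1.85 to 7.50) with Fry-MO and 3.37-fold (1.70 to 7.15) with Lhx1-AS. The other arm, miR-17-3p, was called in neither, at 0.700 (0.281 to 1.67) with Fry-MO and 1.98 (1.01 to 4.05) with Lhx1-AS. MiR-20a-5p, the other partner called higher with Fry-MO, had 10.5 against 3 raw reads there, and its interval (0.959 to 20.6) held 1. It was called higher with Lhx1-AS too, at 5.55 (1.55 to 30.1) from 14 against 3 raw reads. MiR-18a-3p was called higher only with Lhx1-AS, at 2.71 (1.28 to 6.09), and stood at 0.763 (0.267 to 2.08) with Fry-MO. MiR-93a, which in mammals shares the mir-106b-25 precursor with miR-25, had 234.9, 159.0 and 150.4, with ratios to uninjected of 1.56 (1.25 to 1.95) and 1.06 (0.822 to 1.36). Neither passed the call, and with Lhx1-AS the interval of miR-93a held 1. MiR-106, a cluster mate of miR-363 in mammals, had only 2.5, 2 and 6 raw reads. The median log2 ratio of the 7 was 0.64 with Fry-MO and 0.95 with Lhx1-AS, beside 2.02 and 0.33 over all compared.

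The choice of scaling moved every member of a library by the same factor. Relative to the authors' normalization, scaling to the listed reads raised all Lhx1-AS ratios to uninjected 2.01-fold, and scaling to the mappable reads raised all Fry-MO ratios 1.41-fold. The order of the members within a comparison therefore cannot change with the scaling. MiR-25 stayed past 2-fold against uninjected embryos under all 5 scalings. For miR-363-3p the Fry-MO ratio ran between 0.350 and 0.617 and stayed below 1, while the Lhx1-AS ratio passed 1 when scaled to the listed reads.

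**Figure D5:**
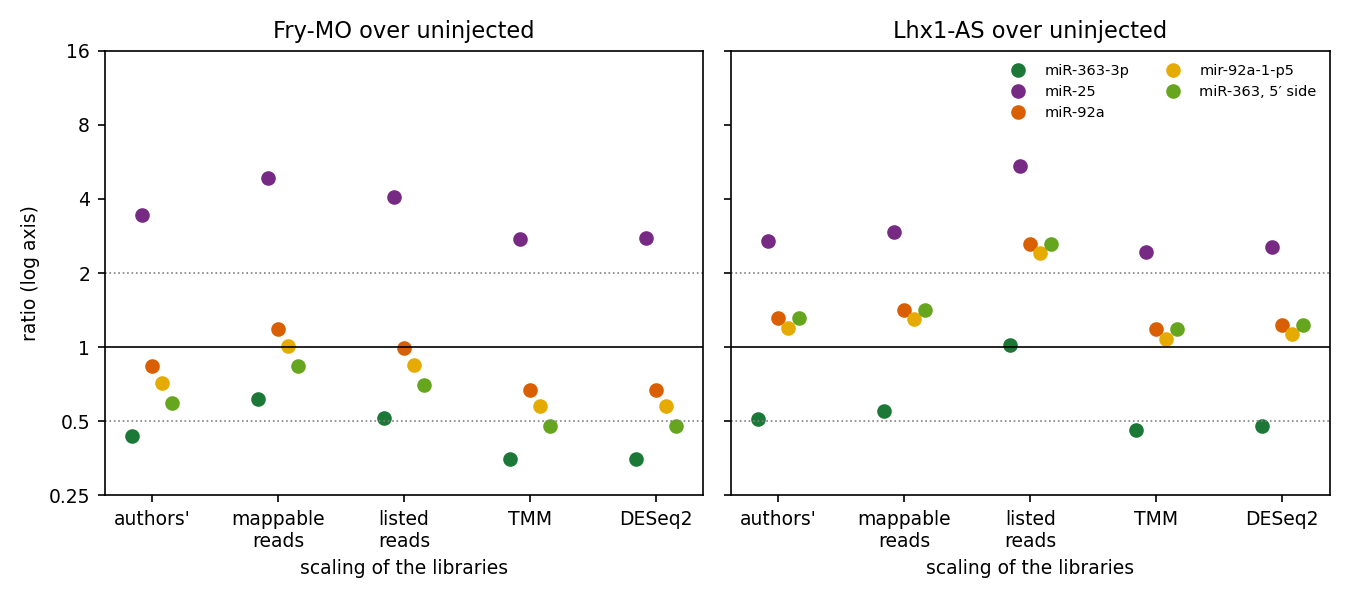
Ratios to the uninjected library (log axis) of the 5 compared members under 5 scalings, for Fry-MO and for Lhx1-AS, with dotted lines at the calls of 0.5 and 2. MiR-25 is the highest and miR-363-3p the lowest of the 5, an order that no scaling can change. MiR-363-3p lies above 1 only in the Lhx1-AS comparison scaled to the listed reads, at 1.02.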

How the data were processed

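Small RNA libraries were sequenced once per group. The authors cut the 3′ adapter, kept reads by length, and used the ACGT101-miR program to map them to miRBase precursors, mature miRNAs and genomes of chordates including *X. laevis*. Which miRBase release and builds were used is not stated in the sources read. The deposited raw values are expected counts, since a read that fits several listed sequences was divided among them, which left 488 sequences with fractional reads. The deposited normalized signal is the raw value divided by the library size parameter given in the deposited file. How the parameter was derived is not stated there. A deposited summary gives the reads per step. The table runs to index 1987, and 2 lines were not analysed here.

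Ratios were computed from normalized counts, with 95% Clopper-Pearson intervals of the raw reads, exact only where reads are whole. Ratios of proportions have conditional exact intervals on rounded reads. A count of 0 was set to 3 reads, and ratios with at most 3 reads on both sides were not formed. Medians of log2 ratios used a pseudocount of 1. Sequences under 10 reads in both libraries were left out of calls. Members and lists were chosen with earlier results of these data known. Every member with a read was named. Of the partner list, miR-17-5p, miR-17-3p, miR-18a-3p, miR-20a-5p, miR-93a and miR-106 were named after their values were seen. So were the fish-, finch-, hamster- and rat-named sequences, and the single values of miR-428 and mir-302-p5. The calculation was tested on simulated counts. Alternatives were 4 other scalings, the read minimum, the fold, calls by interval, summed sequences, all species and the pseudocount. Python 3.11.15, pandas 2.3.3, numpy 2.4.6, scipy 1.17.1, matplotlib 3.10.9 and R 4.3.3 were used. EdgeR 4.0.16 (TMM) and DESeq2 1.42.0 served for scaling factors from rounded reads, without any test.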

Additional observations from a re-analysis of the deposited data

Results flagged for a closer look

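The 3 compared members other than miR-363-3p and miR-25 had a ratio to uninjected below 1 in the Fry-MO library and above 1 in the Lhx1-AS library. Their ratios of Fry-MO to Lhx1-AS were 0.454 for the 5′ product of miR-363, 0.639 for miR-92a and 0.599 for mir-92a-1-p5, each with a counting interval below 1 under the authors' normalization. The interval of the ratio to uninjected held 1 for miR-92a with Fry-MO and for the 5′ product of miR-363 with both. With its 10 listed sequences summed, miR-92a stood at 1.03 (0.875 to 1.22) with Lhx1-AS over uninjected. Scaled to the mappable reads, the ratios of Fry-MO to uninjected were above 1 for miR-92a (1.18) and mir-92a-1-p5 (1.02). The difference was not tested across replicates. A hamster-named sequence for the 5′ side of mir-25, outside the *Xenopus*-named members, had 5 raw reads in the Fry-MO library and none in the uninjected library. The Lhx1-AS library had 1 read of it. The *X. tropicalis*-named mir-25-2-p5 had 3 raw reads with Fry-MO, 1 with Lhx1-AS and 2 in uninjected embryos.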

How the results depend on the processing

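No paired analysis was possible because each group has 1 library, and for the same reason no replicate could be left out. Members called higher with Lhx1-AS over uninjected numbered 1, and 4 when scaled to the listed reads, 2 with no read minimum, 0 at a fold of 4 and 3 by interval. None was called lower there, and 1 with TMM, with DESeq2 scaling, at a fold of 1.5 and by interval. With Fry-MO over uninjected 1 was higher (0 at a fold of 4), and 1 was lower, which became 0 scaled to the listed or the mappable reads or at a fold of 4, and 2 with TMM, with DESeq2 scaling, at a fold of 1.5 and by interval. With Fry-MO over Lhx1-AS 0 were higher (1 by interval), and 1 was lower, which became 3 scaled to the listed reads, at a fold of 1.5 or by interval, 2 with no read minimum, and 0 scaled to the mappable reads, with at least 50 reads or at a fold of 4. The other settings left these counts as they were.

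The ratio of the family sum with Lhx1-AS over uninjected moved to 1.97 scaled to the listed reads, 0.886 with TMM and 1.46 without miR-363-3p. With Fry-MO over uninjected it moved to 0.928 scaled to the listed reads, 0.630 with TMM and 0.631 with DESeq2 scaling, and turned to 1.11 scaled to the mappable reads and to 1.14 without miR-363-3p. With Fry-MO over Lhx1-AS it moved to 0.471 scaled to the listed reads, 0.712 with TMM and 0.683 with DESeq2 scaling, and turned to 1.05 scaled to the mappable reads. Ratios of single members crossed 1 in 5 cases. Scaled to the listed reads these were miR-363-3p with Lhx1-AS over uninjected (1.02) and miR-25 with Fry-MO over Lhx1-AS (0.746). Scaled to the mappable reads they were mir-92a-1-p5 (1.02) and miR-92a (1.18) with Fry-MO over uninjected and miR-363-3p with Fry-MO over Lhx1-AS (1.12). Over rows of all species the share of miR-363-3p was 23.6% with Fry-MO, 22.5% with Lhx1-AS and 41.5% in uninjected embryos. Over all compared *Xenopus* sequences, the share of higher among called ones with Lhx1-AS over uninjected was 83.9%, 100% scaled to the listed reads, 70.6% with TMM and 72.7% with DESeq2 scaling, and with Fry-MO over Lhx1-AS 85.5% and, scaled to the listed reads, 66.1%. Depth limits miR-92b and the other members under 10 reads.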
